A study of Mus musculus with 6 samples.

Results

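The genes that load peptides onto MHC class I molecules were measured by RNA-Seq in bone marrow-derived macrophages (BMDM) with a deletion in *Ppp2ca*, the gene of a catalytic subunit of protein phosphatase 2A, and in WT BMDM. The 7 genes were chosen by name, for their roles in the transport, trimming and loading of peptides and in the transcription of these genes, with earlier results of these data known. All 7 were found among the 55453 genes of the deposited table and were abundant enough to be tested with 13680 genes in all. PP2AcKO BMDM were labelled PP2A KO (3 libraries) and PP2AcWT BMDM Wild Type (3 libraries), all of strain C57BL/6. Per the study's methods, PP2AcKO mice are *LysMcrePP2Acfl/fl* mice, in which *cre* is driven by the Lysozyme 2 promoter and floxP sites flank exon 1 of *Ppp2ca*, while WT mice were bought and are not described as littermates or as carrying *cre*. Lysozyme 2 is active in cells of the myeloid lineage. The source of the mice and the genotype cannot be told apart here. The study used mice of both sexes between 6 and 10 weeks of age, without giving the age or sex of the mice behind each library or saying whether bone marrow was pooled. All 6 libraries were taken as treated with 10 μg/mL of the STING agonist cGAMP for 4 hours, as the study describes for its RNA-Seq, since the labels give no treatment, and no untreated library was analysed here. If that holds, a difference between the groups is one in treated cells, between genotypes that also differ in the source of the mice.

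MHC class I molecules show peptides from inside the cell to CD8+ T cells. Peptides made by the proteasome are pumped into the endoplasmic reticulum (ER) by a transporter of 2 chains, TAP1 and TAP2. Tapasin, encoded by *Tapbp*, bridges this transporter and empty class I molecules and favors peptides that bind well, and TAPBPR, encoded by *Tapbpl*, edits peptides outside that complex. ERAP1 trims peptides in the ER, and the insulin-regulated aminopeptidase, encoded by *Lnpep*, trims them in endosomes during cross-presentation. NLRC5 is a transactivator of class I genes and of several genes of the loading pathway, and IFNs are known to induce much of this machinery in macrophages.

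In the mouse genome build GRCm38 (mm10), 4 of the 7 genes lie on chromosome 17. *Tap1* runs from 34187553 to 34197225 and *Tap2* from 34203527 to 34216321, both on the forward strand within the MHC, with *Psmb8* between them. *Tapbp* lies at 33915899 to 33929292, and its start is 271654 bases from that of *Tap1*. *Lnpep* lies outside the MHC at 17521410 to 17625050 on the reverse strand. *Tapbpl* is on chromosome 6 (125223933 to 125231860, reverse strand), *Erap1* on chromosome 13 (74639568 to 74693201, forward strand) and *Nlrc5* on chromosome 8 (94434356 to 94527272, forward strand). The merged exons of these protein-coding genes in GENCODE M21 span between 2352 bases in *Tapbpl* and 14144 in *Lnpep*.

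Promoter windows of 250 bases before and 20 bases after the RefSeq start of the gene (GRCm38.p6) were found for 4 of the 7 genes, *Tap1*, *Tapbp*, *Erap1* and *Lnpep*. The RefSeq starts differ from the gene starts given above. The windows of *Tapbp* (chr17:33919228-33919497), *Erap1* and *Lnpep* lie wholly within the genes as placed above. Sequence before those outer starts was not searched in these genes. The windows of *Tap1*, which had the largest change of these 4, and of *Erap1* and *Lnpep*, which had the smallest, are printed 5′ to 3′ on the strand of the gene, with the motifs found in capitals. The *Tap1* window (chr17:34187306-34187575, forward strand) shares 265 of its 270 bases, read on the opposite strand, with that of *Psmb9*, an immunoproteasome gene that starts beside it and is transcribed the other way. The *Erap1* window is chr13:74639603-74639872 on the forward strand, and the *Lnpep* window is chr17:17624470-17624739 on the reverse strand.
Tap1: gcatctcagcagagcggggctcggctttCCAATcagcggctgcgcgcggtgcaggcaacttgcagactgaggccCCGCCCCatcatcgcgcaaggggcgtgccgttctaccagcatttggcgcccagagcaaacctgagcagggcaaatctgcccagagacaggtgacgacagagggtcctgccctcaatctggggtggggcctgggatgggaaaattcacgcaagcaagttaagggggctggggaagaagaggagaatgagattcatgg
Erap1: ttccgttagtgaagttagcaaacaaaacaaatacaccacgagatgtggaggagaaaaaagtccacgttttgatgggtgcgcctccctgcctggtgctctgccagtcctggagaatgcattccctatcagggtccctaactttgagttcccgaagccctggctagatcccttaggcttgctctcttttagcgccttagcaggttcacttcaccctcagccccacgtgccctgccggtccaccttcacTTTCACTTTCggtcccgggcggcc
Lnpep: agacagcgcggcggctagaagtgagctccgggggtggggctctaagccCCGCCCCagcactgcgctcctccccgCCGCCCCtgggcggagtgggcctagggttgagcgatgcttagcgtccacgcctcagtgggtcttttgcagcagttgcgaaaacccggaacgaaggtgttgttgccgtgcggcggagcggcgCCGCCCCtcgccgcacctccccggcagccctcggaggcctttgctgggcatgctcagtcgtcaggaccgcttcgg

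Each window was searched on both strands for an ISRE core (2 copies of GAAA with any 2 bases between them, as bound by IRFs), for a GAS (TTCNNNGAA), for the box CCAAT, which NF-Y binds, and for the GC box, the letters GGGGCGG. The letters of these motifs did not overlap in the windows printed. *Erap1* held an ISRE core from base -4 to base 6, counted from the RefSeq start as base 1 with no base 0. This motif was found in 3.21% of all 32851 promoter windows of this length. *Tap1* held a CCAAT box (35.4% of all windows) and a GC box (22.2%), *Tapbp* held 2 CCAAT boxes, and *Lnpep* held 3 GC boxes. No match to the GAS letters (7.58% of all windows), or to an NF-κB site that was also searched (1.5%), was found in the 4 windows. A match describes letters in these windows and is not a measure of binding.

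*Ppp2ca* had 33 to 47 counts per library in PP2AcKO and 8279 to 10654 in PP2AcWT, with no overlap, and *Ppp2cb*, the gene of the other catalytic isoform, had a log2 fold change of 0.03 (adjusted p = 0.731 from edgeR). Libraries held between 35257156 and 47390899 counts on genes, and levels are given as CPM, that is, counts scaled to a common library size with TMM factors. The 7 macrophage markers listed summed to 7294 to 7483 CPM in PP2AcKO and 6170 to 6801 CPM in PP2AcWT, of which *Csf1r*, the receptor of M-CSF, made up 3301 to 3561 CPM and 2883 to 3215 CPM. *Lyz2*, the gene whose promoter drives *cre* here, was counted at 7.88 to 10.1 CPM and 6.58 to 8.33 CPM. Whether its reads could have been lost to other genes in counting was not tested, so these values may not reflect its expression. Of the 7, *Fcgr1* and *Mertk* were higher in PP2AcKO, and when the fit was blocked on replicate number *Csf1r* (adjusted p = 0.00280) and *Lyz2* (adjusted p = 0.0118 from edgeR) were too. In bulk RNA a lower share of cells that express a gene and less RNA per cell cannot be told apart. The 6 fibroblast markers listed summed to 23.3 to 35.0 CPM in PP2AcKO and 76.6 to 120.7 CPM in PP2AcWT, and the 5 that were tested were lower. The 7 dendritic cell markers summed to 2.30 to 3.32 CPM and 1.60 to 2.42 CPM, with *Clec9a* and *Siglech* higher and 2 others not passing the test, the 3 B cell markers to 0.684 to 1.34 CPM and 0.501 to 0.584 CPM, and the 5 neutrophil markers to 0.839 to 0.939 CPM and 0.664 to 0.907 CPM. The 5 T and NK cell markers reached at most 0.212 CPM, with *Cd8a* at 0 in every library. The part of these cells in the differences given here was not tested.

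All 7 loading genes rose in PP2AcKO BMDM, by between 1.31-fold and 2.59-fold. The threshold used throughout was a false discovery rate (FDR) under 0.05, by the quasi-likelihood test of edgeR and the Benjamini-Hochberg method. Of all 13680 genes tested, 37.1% passed it, 18.1% higher and 19.0% lower in PP2AcKO. With the replicate number as a block, which left all 7 genes higher, 24.4% were higher and 26.4% lower. The median log2 fold change (log2FC) of the 7 genes was 0.99, and that of all genes tested was -0.02. *Nlrc5*, *Tapbpl*, *Tap1* and *Tap2* rose most, *Tapbp* less, and the aminopeptidases *Lnpep* and *Erap1* least. In each of the 7 genes the 3 PP2AcKO libraries lay above the 3 PP2AcWT libraries, as in 24% of all genes tested (3290 of 13680), against 26.8% with PP2AcKO below and 50.9% with either order. At the study's thresholds for upregulated genes (log2FC over 1 and FDR under 0.01), *Nlrc5*, *Tapbpl* and *Tap1* were upregulated, 3 of 7 against 3.36% of all genes, and none was downregulated, against 2.99%.

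**Figure D1:**
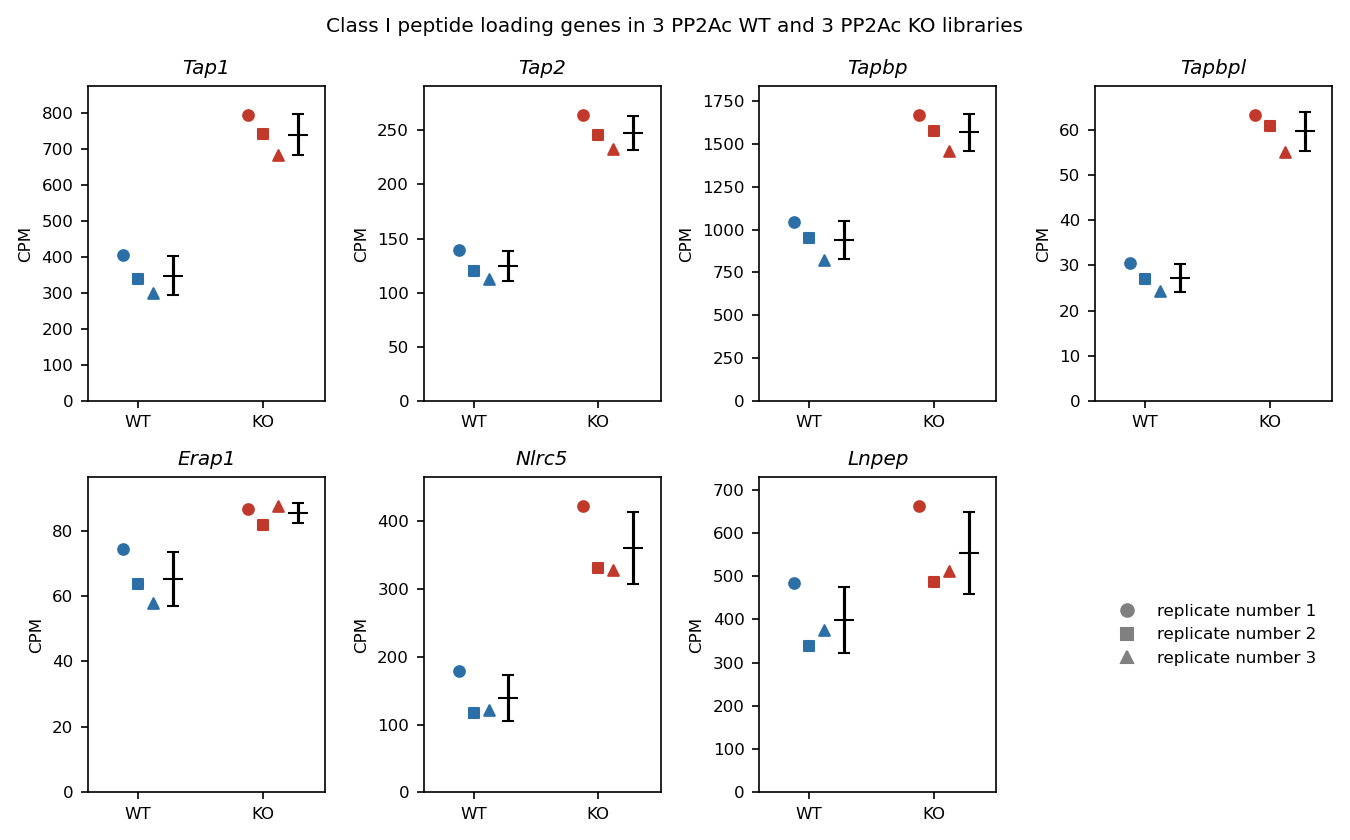
Level of each of the 7 loading genes in CPM (vertical axes, from 0) in the 3 PP2AcWT (blue) and 3 PP2AcKO (red) libraries, with the replicate number as the shape of the point and the mean ± SD as black bars. All red points lie above all blue points, by the narrowest margin in *Lnpep*, where the highest WT library had 483.4 CPM and the lowest KO library 486.2 CPM.

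*Tap1* encodes the chain of the transporter that partners with TAP2, and each chain binds ATP. It was counted at 794.4, 740.3 and 682.9 CPM in PP2AcKO libraries 1 to 3 and at 405.1, 337.8 and 299.0 CPM in PP2AcWT libraries 1 to 3. The lowest PP2AcKO library was 277.7 CPM above the highest PP2AcWT library. The log2FC was 1.09 (standard error, SE, 0.11, adjusted p = 1.65e-04 from edgeR), a 2.13-fold increase.

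*Tap2* had 264.4, 245.3 and 232.7 CPM in PP2AcKO and 139.6, 120.4 and 112.9 CPM in PP2AcWT. The groups were again well apart, with every PP2AcKO library above 230 CPM and every PP2AcWT library below 140 CPM. Its log2FC was 0.99 (SE 0.09, adjusted p = 9.99e-05 from edgeR), or 1.99-fold. With RLE scaling in place of TMM, the log2FC of *Tap2* was 1.02, and it too passed the study's thresholds.

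The log2FC of *Tap1* was slightly above that of *Tap2*. Within each library, the log2 ratio of *Tap1* to *Tap2* counts was 1.58 ± 0.0217 (SD, n = 3) in PP2AcKO and 1.48 ± 0.0669 (SD, n = 3) in PP2AcWT, a difference of 0.10 (exact permutation test, two-sided, p = 0.1, adjusted over 5 ratios 0.167). With 3 libraries against 3 this test cannot give a p-value under 0.1, and it does not pair the libraries. By replicate number, the differences were 0.0499, 0.11 and 0.15. A ratio of counts within a library does not depend on how libraries are scaled.

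*Tap1* and its neighbor *Psmb9*, which encodes a catalytic subunit of the immunoproteasome, start within the same promoter window. *Psmb9* had a log2FC of 0.98 (SE 0.09, adjusted p = 1.03e-04 from edgeR). The log2 ratio of *Tap1* to *Psmb9* was 2.11 ± 0.0488 in PP2AcKO and 2.00 ± 0.0627 in PP2AcWT (SD, n = 3), and the groups overlapped, with a difference of 0.11 (exact permutation p = 0.2, adjusted 0.25). Between libraries of the same number, which this test does not pair, the ratio was higher in PP2AcKO in 3 of 3 pairs, by 0.094, 0.11 and 0.13. The annotated genes overlap by 212 bases on opposite strands, 3.87% of the exon bases of *Tap1*, so a small share of reads could have been counted for the other gene if strand was not used.

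*Tapbp*, which encodes tapasin, was the most abundant of the 7 genes. It had 1671, 1573 and 1458 CPM in PP2AcKO and 1044, 951.8 and 821.5 CPM in PP2AcWT, with no overlap. The log2FC was 0.74 (SE 0.10, adjusted p = 5.12e-04 from edgeR), or 1.67-fold. An antisense gene, *Gm19412*, which covers 24.9% of its exon bases, had 41 to 91 counts per library. *Zbtb22*, a protein-coding gene on the same strand that shares 149 of its exon bases (4.11%), had 1313 to 2040 counts per library.

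*Tapbpl*, the gene of the tapasin-related editor TAPBPR, was less abundant and changed more. It had 63.4, 60.7 and 55.0 CPM in PP2AcKO and 30.6, 26.9 and 24.3 CPM in PP2AcWT. Each PP2AcKO library was thus far above the highest PP2AcWT library. The log2FC was 1.13 (SE 0.09, adjusted p = 6.41e-05 from edgeR), or 2.19-fold.

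The ratio of *Tapbp* to *Tapbpl* was lower in PP2AcKO in every library. The log2 ratio of their counts was 4.71 ± 0.0179 in PP2AcKO and 5.11 ± 0.0359 in PP2AcWT (SD, n = 3), a difference of -0.39 (exact permutation test, two-sided, p = 0.1, adjusted 0.167). The difference was larger than the spread of either group, and the p-value is the smallest that the design allows. Leaving out any 1 library gave differences of -0.41 to -0.37. By replicate number, the differences were -0.37, -0.45 and -0.35.

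*Erap1*, the aminopeptidase of the ER, had 86.5, 81.8 and 87.4 CPM in PP2AcKO and 74.3, 63.5 and 57.9 CPM in PP2AcWT. The PP2AcKO libraries were close to each other, and the nearest PP2AcWT library, number 1, was 7.48 CPM below the lowest of them. The log2FC was 0.39 (SE 0.09, adjusted p = 0.00830 from edgeR), a 1.31-fold increase. *Cast*, a calpain inhibitor gene that shares 834 exon bases with *Erap1* on the opposite strand (11.5% of the exon bases of *Erap1*), had a log2FC of -0.08 (adjusted p = 0.450 from edgeR).

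*Lnpep*, the aminopeptidase of endosomes, varied more between replicates than *Erap1*. It had 661.6, 486.2 and 512.7 CPM in PP2AcKO and 483.4, 337.6 and 375.5 CPM in PP2AcWT. Library 1 was the highest of its group in both genotypes, and only 2.74 CPM separated PP2AcWT library 1 from PP2AcKO library 2. The log2FC was 0.47 (SE 0.15, adjusted p = 0.0341 from edgeR), or 1.39-fold. The call was lost without PP2AcKO library 1 (log2FC 0.32, adjusted p = 0.123), without PP2AcWT library 2 (0.37, adjusted p = 0.122) and without PP2AcWT library 3 (0.43, adjusted p = 0.0730), all from edgeR. Between libraries of the same number, the log2 difference of *Lnpep* was 0.45, 0.53 and 0.45, and that of *Erap1* was 0.22, 0.36 and 0.60.

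The log2 ratio of *Erap1* to *Lnpep* was -2.69 ± 0.216 in PP2AcKO and -2.60 ± 0.167 in PP2AcWT (SD, n = 3). The groups overlapped, and the difference of -0.08 was within the spread between libraries (exact permutation p = 0.6, adjusted 0.6). Between libraries of the same number the differences were -0.23, -0.16 and 0.15. Since this test cannot give a p-value under 0.1 with 3 libraries per group, it does not decide whether these 2 genes rose by unequal amounts.

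*Nlrc5*, the transactivator, had the largest increase of the 7 genes and ranked 250th of the 13680 genes by log2FC. It had 421.7, 330.6 and 327.5 CPM in PP2AcKO and 178.5, 117.4 and 121.7 CPM in PP2AcWT, and the lowest PP2AcKO library was 149.0 CPM above the highest PP2AcWT library. The log2FC was 1.37 (SE 0.17, adjusted p = 3.30e-04 from edgeR), or 2.59-fold. The log2 ratio of *Nlrc5* to *Tap1* was -1.05 ± 0.125 in PP2AcKO and -1.33 ± 0.174 in PP2AcWT (SD, n = 3), a difference of 0.29 (exact permutation test, two-sided, p = 0.1, adjusted 0.167). With any 1 library left out the difference was between 0.19 and 0.37. By replicate number, the differences were 0.27, 0.36 and 0.24.

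**Figure D2:**
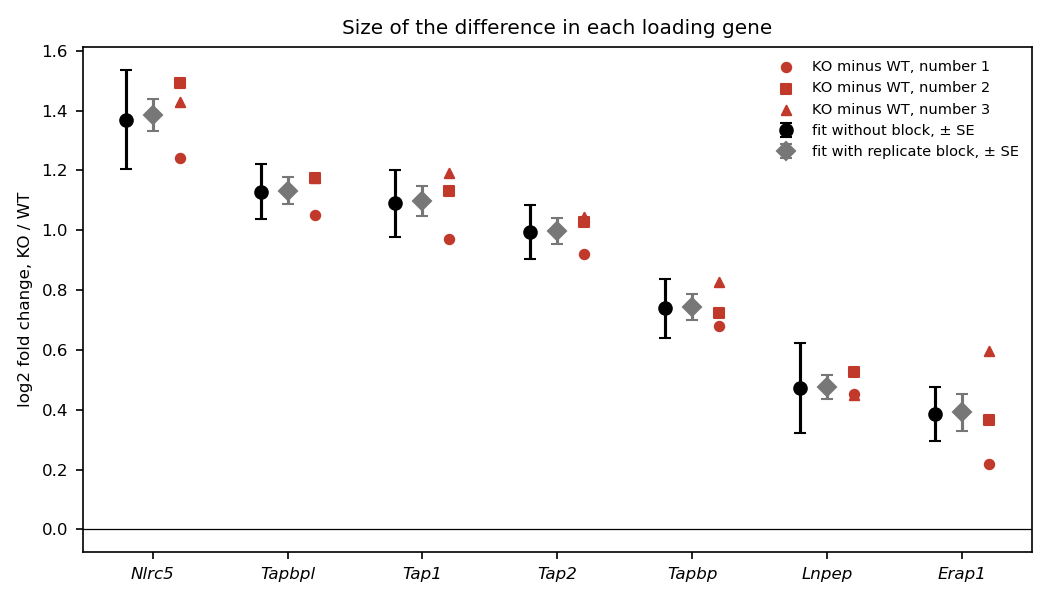
Log2FC of each loading gene, PP2AcKO over PP2AcWT (vertical axis), from the fit without the replicate number (black circles ± SE), from the fit with it as a block (gray diamonds ± SE), and as the difference between libraries of the same number (red). Estimates of the 2 fits nearly coincide, while the SE of *Lnpep* falls from 0.15 to 0.04 with the block.

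Library 1 was the highest of the PP2AcWT libraries in all 7 genes, and of the PP2AcKO libraries in 6 of the 7, the exception being *Erap1*. The level in CPM of *Ifnb1* and *Isg15* was also highest in library 1 of each genotype, and the part of this in the differences was not tested. *Ifnb1*, the gene of IFN-β, had 815, 433 and 644 counts in PP2AcKO and 440, 257 and 181 counts in PP2AcWT. *Isg15*, an IFN-stimulated gene, rose by 1.16 on the log2 scale (adjusted p = 7.97e-05 from edgeR). No count of *Ifng* was found in any library. Without PP2AcWT library 1, the log2FCs of the 7 genes were the highest of the fits that left out 1 library, from 0.49 in *Erap1* to 1.59 in *Nlrc5*, and all 7 passed the test.

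**Figure D3:**
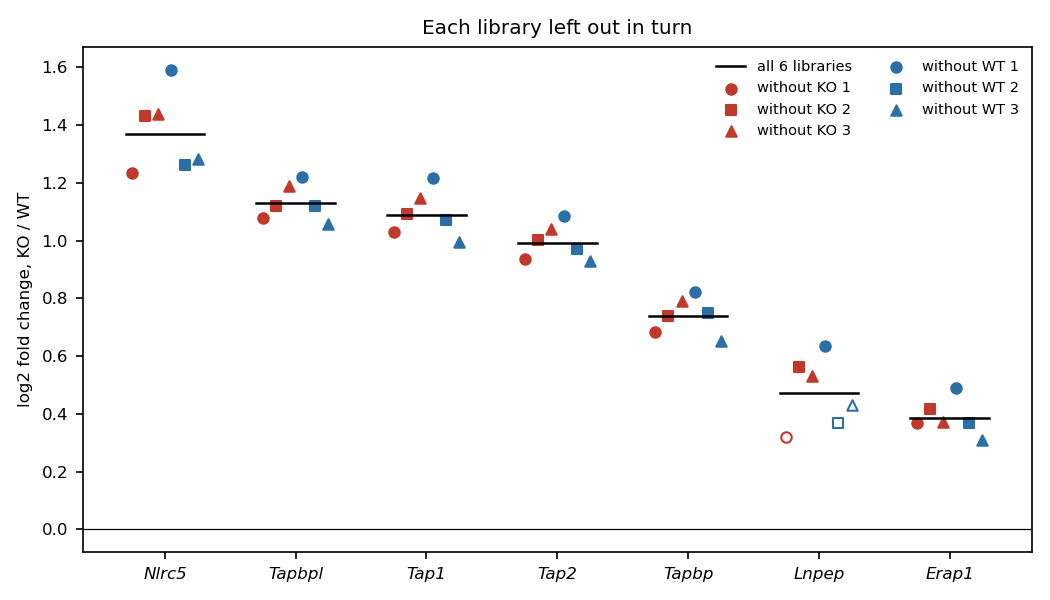
Log2FC of each loading gene, PP2AcKO over PP2AcWT (vertical axis), with all 6 libraries (black lines) and with each library left out (points, red for a PP2AcKO library and blue for a PP2AcWT library, filled where FDR is under 0.05). Every point is above 0, and the open points are the 3 fits in which *Lnpep* missed the threshold.

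Levels of different genes were compared as CPM per kilobase of merged exons. In PP2AcWT the order was *Tapbp* (258.8 ± 30.8), *Tap1* (63.4 ± 9.81), *Tap2* (32.9 ± 3.63), *Lnpep* (28.2 ± 5.35), *Nlrc5* (16.4 ± 4.02), *Tapbpl* (11.6 ± 1.33) and *Erap1* (8.96 ± 1.15 CPM per kilobase; SD, n = 3). The ranges of *Tap2* and *Lnpep* over libraries overlapped, although *Tap2* was above *Lnpep* within each of the 3 libraries, and the ranges of *Tapbpl* and *Erap1* were separated by less than either SD, with *Tapbpl* 2.40 to 2.79 above *Erap1* within libraries. In PP2AcKO the order was *Tapbp* (432.0 ± 29.3), *Tap1* (135.0 ± 10.2), *Tap2* (65.5 ± 4.22), *Nlrc5* (42.4 ± 6.30), *Lnpep* (39.1 ± 6.69), *Tapbpl* (25.4 ± 1.82) and *Erap1* (11.7 ± 0.417 CPM per kilobase; SD, n = 3). The ranges of *Nlrc5* and *Lnpep* overlapped there, with *Nlrc5* above *Lnpep* within each of the 3 libraries, while in PP2AcWT every *Lnpep* value lay above every *Nlrc5* value. Transcripts that end or start differently from the annotation would change these levels. They would leave the fold changes of a gene as they are only if they were alike in both genotypes, which was not tested.

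**Figure D4:**
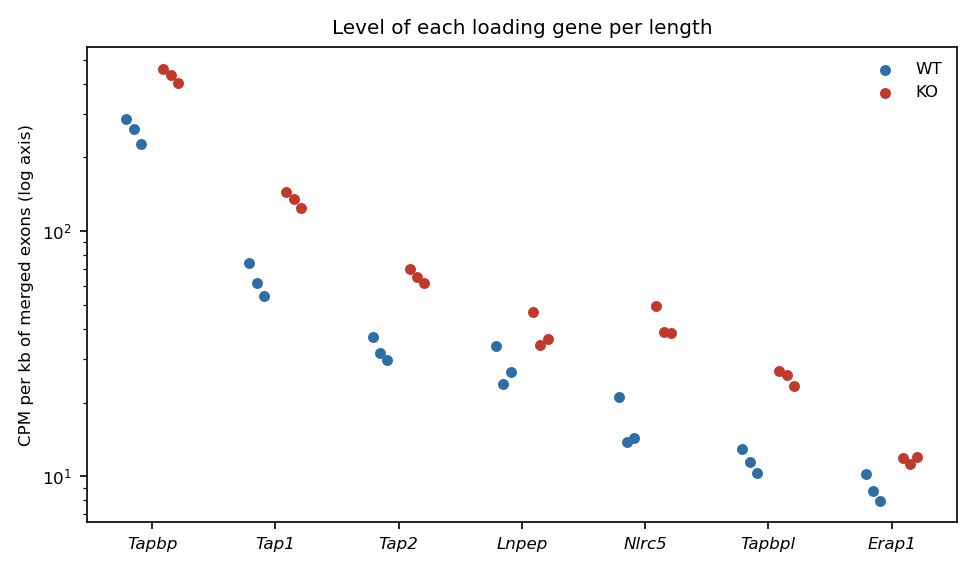
Level of each loading gene in CPM per kilobase of merged exons (log axis) in the 3 PP2AcWT (blue) and 3 PP2AcKO (red) libraries, ordered by the PP2AcWT mean. *Tapbp* is the highest in both genotypes and *Erap1* the lowest, and the ranges of *Nlrc5* and *Lnpep* overlap in PP2AcKO only.

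The patterns of the genes over the 6 libraries were compared by the root mean square difference of their centered log2 CPM, a description in which a small value means a like pattern and which is dominated by genotype. Among the 7 genes, *Tap1* and *Tapbpl* were the most alike (0.0390), followed by *Tap1* and *Tap2* (0.0650), although *Tapbpl* lies on another chromosome. The genes most like *Tap1* of all those tested were *Slc25a12* (0.0191), *Sp110* (0.0291) and *Cyp27a1* (0.0301). *Tap2* was most like *Oas1a*, *Dbnl* and *Parp10*, and *Tapbpl* was most like *Nectin4*, *Isg15* and *Tap1*. The nearest genes were *Ppa1*, *Rnf4* and *Fcrls* for *Tapbp*, *Taf13*, *Atad1* and *Med7* for *Erap1*, and *Wnk1*, *Dock4* and *Chd9* for *Lnpep*. *Nlrc5* had no gene as close, its nearest being *Ifi203-ps* (0.0578), *Dennd1b* (0.0652) and *Gm26797* (0.0654).

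The class I molecules that receive the peptides also rose. Of 16 class I genes listed, 13 were tested, 11 rose and none fell, with a median log2FC of 0.94. For this and the lists below, 18.1% of all genes tested were higher and 19.0% lower. *H2-K1* and *H2-D1*, the classical class I genes of this strain, rose by 0.94 and 0.52 on the log2 scale (adjusted p = 3.09e-04 and 0.00235 from edgeR), and *B2m*, the light chain that all class I molecules share, rose by 0.74 (adjusted p = 9.32e-04). Among nonclassical genes, *H2-T23* rose by 0.84, *H2-T22* by 1.39 and *H2-M3* by 1.01. The largest changes were in *H2-Q6* (3.04) and *H2-Q7* (2.55), but 32.0% and 26.4% of the 50-base windows in their transcripts also occur in transcripts of other genes, so their reads could have been divided between paralogs. The same holds for *H2-T22* (34.5% of windows shared), *H2-T23* (13.6%), *H2-D1* (12.8%) and *H2-K1* (9.63%), and these values are uncertain to that extent. *H2-M2* (-0.05, adjusted p = 0.863) and *Mr1* (0.12, adjusted p = 0.296 from edgeR) did not pass the test. For the 7 loading genes, at most 3.52% of such windows were shared, in *Tapbpl*, and none in *Erap1*, *Lnpep* or *Nlrc5*.

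Subunits of the immunoproteasome, the IFN-induced proteasome whose products feed TAP, rose while most of the subunits that they replace did not pass the test. All 5 genes of the immunoproteasome and its PA28 cap rose, with a median log2FC of 0.98. *Psmb10* had 219.2 ± 11.5 CPM in PP2AcKO BMDM and 89.7 ± 11.4 CPM in WT BMDM (SD, n = 3), with a log2FC of 1.29 (adjusted p = 5.51e-05 from edgeR). *Psmb8* rose by 0.99, *Psme2* by 0.89 and *Psme1* by 0.74. Of the standard catalytic subunits *Psmb5*, *Psmb6* and *Psmb7* and the nuclear activator gene *Psme3*, only *Psmb7* passed the test, with a log2FC of 0.21 (adjusted p = 0.0172 from edgeR). It missed the test with upper-quartile scaling (adjusted p = 0.0905), without a filter on low counts (0.0557), without PP2AcKO library 2 (0.0815) and without PP2AcWT library 2 (0.0634). With the replicate number as a block, *Psmb6* also passed (0.12, adjusted p = 0.0346 from edgeR), and *Psmb5* had 0.05, a value that changed sign with upper-quartile scaling.

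Most genes of the ER proteins that work with the loading complex did not pass the test. Of 11 genes listed for folding, loading and entry into the ER, *Hspa5*, which encodes the chaperone BiP, was the only one to pass the test, with a log2FC of 0.51 (adjusted p = 0.00189 from edgeR), and the median was 0.07. *Calr* and *Pdia3*, whose products calreticulin and ERp57 sit in the loading complex with tapasin, had log2FCs of 0.00 and 0.12 (adjusted p = 0.979 and 0.173), and *Canx*, the gene of calnexin, 0.05 (adjusted p = 0.619 from edgeR). *Uggt1*, whose product reglucosylates class I molecules held by TAPBPR, had -0.11 (adjusted p = 0.404). The values of *Calr* and *Canx* were below 0 with upper-quartile scaling. With the block, *Sec61b* and *Sec61g*, subunits of the channel into the ER, passed as well (adjusted p = 0.0134 and 0.00849 from edgeR), which made 3 of 11. The count was also 3 with RLE scaling and without PP2AcKO library 1, and 2 with DESeq2.

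Cytosolic peptidases, which destroy or shorten peptides before TAP can bind them, fell or did not pass. Of 7 listed, none rose and 3 fell, *Ide* by 0.47, *Thop1* by 0.32 and *Tpp2* by 0.21 on the log2 scale (adjusted p = 4.75e-04, 0.0287 and 0.0298 from edgeR). Of all genes tested, 19.0% were lower. The fall of *Thop1* missed the test without PP2AcKO library 1 (adjusted p = 0.0988), PP2AcKO library 2 (0.10), PP2AcWT library 2 (0.0712) or PP2AcWT library 3 (0.0887). That of *Tpp2* missed it without PP2AcKO library 1 (0.0717), PP2AcKO library 2 (0.116), PP2AcWT library 1 (0.0516) or PP2AcWT library 3 (0.0744), so that only *Ide* was left in 3 of these fits. With the block, *Npepps*, which encodes the puromycin-sensitive aminopeptidase, rose by 0.15 (adjusted p = 0.0113 from edgeR).

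Relatives of the loading genes were mixed, as were all genes tested, with 18.1% higher and 19.0% lower. Of the 7 other M1 aminopeptidases listed, the family of ERAP1 and the *Lnpep* product, 5 were tested, *Rnpep* and *Rnpepl1* rose by 0.58 and 0.33 on the log2 scale (adjusted p = 2.85e-04 and 0.00246), and *Lta4h* fell by 0.31 (adjusted p = 0.00493 from edgeR). With the block, *Anpep* and *Npepps* also rose, which made 4 of 5, against 24.4% of all genes tested. Of 8 other ABCB transporters, the subfamily of TAP1 and TAP2, 7 were tested, of which *Abcb1a* rose by 1.37 and *Abcb1b* by 0.76, and *Abcb8* and *Abcb4* fell by 0.42 and 0.33. *Abcb9*, the gene of the lysosomal peptide transporter TAPL, had a log2FC of -0.42 (adjusted p = 0.0611 from edgeR), and passed with the block (adjusted p = 0.0113), with upper-quartile scaling (0.0357), without a filter (0.0230) and without PP2AcWT library 3 (0.0224).

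*Nlrc5* and its class II counterpart *Ciita* moved in opposite directions. *Ciita*, the master transactivator of MHC class II genes, had 684, 404 and 491 counts in PP2AcKO and 1575, 1226 and 1066 counts in PP2AcWT. It fell by 1.09 on the log2 scale (SE 0.13, adjusted p = 2.87e-04 from edgeR), with no overlap between the groups. Of the other 4 NLR genes listed, *Nod1* and *Nod2*, sensors of bacterial peptidoglycan, rose by 1.31 and 1.02, while *Nlrc3* (-0.14) and *Nlrx1* (0.11) did not pass the test.

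Factors that bind the promoters of class I and loading genes rose in part. Of 16 listed, 9 rose and none fell, against 18.1% and 19.0% of all genes tested, with a median log2FC of 0.32. *Rfx5*, a subunit of the RFX complex to which NLRC5 and CIITA dock, rose by 0.93 (adjusted p = 6.41e-05 from edgeR), while the other RFX subunits *Rfxap* (-0.15) and *Rfxank* (-0.17) did not pass. *Nfkb1*, *Irf2*, *Stat2*, *Irf1*, *Rela*, *Irf8* and *Irf9* rose by between 0.28 and 0.75. With the block, *Nfya* also rose (adjusted p = 0.0110) and *Creb1* fell (adjusted p = 0.00757 from edgeR). *Nfya* passed as well with RLE scaling (adjusted p = 0.0481 from edgeR) and in DESeq2 (adjusted p = 0.0259), and 2 factors were lower with upper-quartile scaling.

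Genes around endosomal trimming and cross-presentation were also mixed. Of 5 genes listed for the vesicles that carry the *Lnpep* product, none rose and *Sort1*, the gene of sortilin, fell by 0.35 (adjusted p = 0.00391 from edgeR), while *Rab14* (-0.02) and *Stx6* (0.09) did not pass. With the block, *Vamp2* fell as well (adjusted p = 0.0308 from edgeR), and 26.4% of all genes tested were lower. The count of these genes lower was also 2 without PP2AcWT library 1, a fit whose share of all genes is not given here. Of 7 genes listed for cross-presentation, 4 rose and none fell, against 18.1% and 19.0% of all genes tested. *Wdfy4* rose by 0.81 (adjusted p = 0.00384), *Cybb*, the catalytic subunit of the phagocyte NADPH oxidase, by 0.57 (adjusted p = 0.00294) and *Vamp8* by 0.53 (adjusted p = 2.09e-04 from edgeR). *Snap23* rose by 0.23 (adjusted p = 0.0367 from edgeR), and missed the test with upper-quartile scaling (0.0865) and without PP2AcKO library 1 (0.0667), 2 (0.103) or 3 (0.0702) or PP2AcWT library 2 (0.0963) or 3 (0.117).

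**Figure D5:**
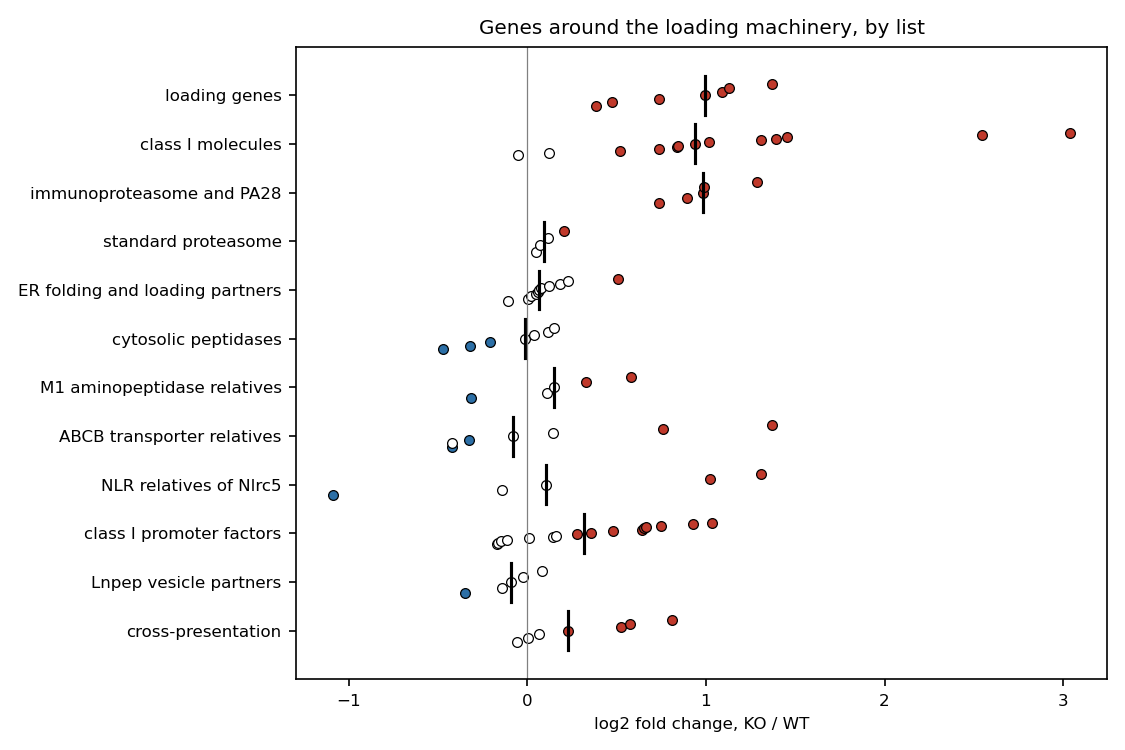
Log2FC, PP2AcKO over PP2AcWT (horizontal axis), of each tested gene in 12 lists, filled red where higher and blue where lower at FDR under 0.05, open otherwise, with the list's median as a black line. The loading genes, class I molecules and immunoproteasome genes have medians of 0.99, 0.94 and 0.98. The ER partners and the standard proteasome list, which also holds the activator gene *Psme3*, have medians of 0.07 and 0.09.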

How the data were processed

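RNA-Seq was analysed for 6 BMDM libraries, 3 per genotype, grouped by the titles in the labels. Polyadenylated RNA was sequenced as paired-end reads with a directional kit. The authors deposited raw counts of reads per gene, without normalization. The submitters' processing notes name the builds mm10 and GRCm38 and, with no role given, fastp 0.20.0, kallisto 0.46.1, STAR 2.7.1a, HTSeq 0.11.2, edgeR 3.34.0 and limma 3.48.3. The annotation release and strand setting are not given in the sources used here. GENCODE M21 held 98.4% of the symbols.

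Counts were tested in R 4.3.3 with edgeR 4.0.16 (filterByExpr with a minimum count of 10 and minimum total of 15, TMM, glmQLFit, glmQLFTest, genotype alone, Benjamini-Hochberg over 13680 genes). Alternatives were other scalings and filters, the replicate number as a block, each library left out, DESeq2 1.42.0 and limma-voom 3.58.1. Log2 ratios of counts within libraries, with 0.5 added, were compared by exact permutation with scipy 1.17.1. The test was tried on simulated counts first.

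The pairing comes from the replicate numbers in the labels. Deviations from group means of same-numbered libraries correlated at 0.289, 0.148 and 0.337 over 13680 genes, so the numbers were taken to pair the libraries in the fit with the block. The main fit and the permutation tests do not use this pairing. The study's methods state that cell-based experiments used biological triplicates unless noted otherwise. Whether each library here came from a separate mouse or culture is not said. The edgeR p-values weigh a difference between groups against the spread between these libraries, which may not be the spread between mice. The permutation p-values compare the difference with those of all regroupings of these libraries. Chi-square per degree of freedom between libraries of a group was 9.57 to 46.1, so no library was counted as a copy of another. The members and gene lists were chosen by hand with earlier results of these data known. Named genes are the 7 members, listed genes, up to the 4 largest changes per list and those needed to account for it, and the 3 genes most like each member. *Cast*, *Gm19412* and *Zbtb22* were added after their overlaps were seen. A symbol not in the table, *Nrdc*, was matched as *Nrd1* through RefSeq. Promoter windows are from RefSeq. The values of 1 listed gene are not reported here.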

Additional observations from a re-analysis of the deposited data

How the results depend on the processing

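All 7 loading genes were higher in PP2AcKO under RLE and upper-quartile scaling, both other filters, the replicate block, DESeq2 and limma-voom, and passed the test in each. The share of all genes that were higher moved with the setting. It was 24.4% with the block, against 18.1% in the main fit. More of all genes were higher with RLE scaling than in the main fit, and fewer with upper-quartile scaling. The shares in the other fits are not given here. With 1 library left out, 6 to 7 of the loading genes were higher and 0 lower, *Lnpep* being the one lost, and 2 to 4 passed the study's thresholds (2 without PP2AcWT library 3). The share of all genes past those thresholds was not counted in these fits. The log2 fold changes then ran from 0.31 to 0.49 for *Erap1*, 0.32 to 0.64 for *Lnpep*, 1.24 to 1.59 for *Nlrc5*, 0.99 to 1.22 for *Tap1*, 0.93 to 1.09 for *Tap2*, 0.65 to 0.82 for *Tapbp* and 1.06 to 1.22 for *Tapbpl*. The cause of the losses of *Lnpep* was not tested. Over all genes, 1974 to 2721 were then higher and 1873 to 2720 lower, with 13870 to 14169 genes tested. Among the listed genes, the replicate block changed no other call than those given beside the results, and *Lnpep* had a log2 fold change of 0.48 with it (adjusted p = 3.54e-06 from edgeR).

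The difference in log2 ratio of *Erap1* to *Lnpep* ran from -0.15 to 0.042 with 1 library left out, changing sign without PP2AcKO library 1 (0.042) and PP2AcWT library 2 (0.014). The others kept their sign, 0.066 to 0.13 for *Tap1* to *Tap2*, -0.41 to -0.37 for *Tapbp* to *Tapbpl*, 0.19 to 0.37 for *Nlrc5* to *Tap1* and 0.085 to 0.15 for *Tap1* to *Psmb9*. Genes that missed the test changed sign near 0. With upper-quartile scaling, which moves the median of all genes to -0.088, *Psmb5* had a log2 fold change of -0.016, *Calr* -0.061 and *Canx* -0.015. *Calr* had -0.0052 without a filter and -0.0012 with at least 10 counts in every library, and *Nrd1* had 0.0086 with RLE scaling and 0.0085 with DESeq2. With 1 library left out, the values ran from -0.018 to 0.027 for *Calr*, -0.034 to 0.023 for *Nrd1*, -0.0063 to 0.085 for *Psmb5*, -0.044 to 0.0022 for *Rab14* and -0.13 to 0.12 for *H2-M2*.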
